A study of Mus musculus with 71 samples.

Results

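The gasdermin family was followed through the gut of wild-type (WT) and Btnl2-KO mice by way of 6 listed genes, Gsdmc, Gsdmc2, Gsdmc3, Gsdmc4, Gsdmd and Gsdma, of the 24475 gene identifiers in the bulk tables. All 6 were found, and the counts of the 4 Gsdmc copies were also added to give a summed Gsdmc value. Of the 71 libraries of the series, 65 were bulk RNA libraries from 3 sources: sorted γδ intraepithelial lymphocytes (γδ IELs, 22 libraries), the epithelial fraction (IECs, 16 libraries) and whole tissue (27 libraries). The other 6 were single-cell libraries of γδ IELs, 1 for each genotype and segment.

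Btnl2-KO mice carry a LacZ cassette in frame with the start codon of Btnl2, followed by a selection cassette, in every cell of the body, and are on a C57BL/6 background. By the study's methods their controls were WT littermates, the mice were female and cohoused, and γδ IELs were taken at steady state. No library title names a treatment, and the methods do not say which mice gave the whole-tissue libraries. γδ IELs were sorted as CD45+ TCRβ- TCRγδ+ cells from duodenum, jejunum and ileum, the small intestine having been divided into equal parts, and 2 mice were pooled for each bulk library. There were 4 WT and 3 Btnl2-KO libraries of duodenal γδ IELs, 4 and 4 of jejunal, and 4 and 3 of ileal γδ IELs, with an age of 10 weeks in the labels and a slightly higher one in the study's methods. The methods took the segments from the same mice, so libraries of different segments can share animals, the labels do not say which, and the comparisons of segments treat them as independent. The single-cell libraries were labelled 8 to 10 weeks and came from pools, so that each group held 1 library. IECs, labelled 7 weeks, gave 3 WT and 2 Btnl2-KO libraries from duodenum, 3 and 3 from jejunum, and 2 and 3 from ileum. Whole tissue, labelled YNG throughout with no age in weeks, came from small intestine (7 WT, 7 Btnl2-KO) and colon (6 WT, 7 Btnl2-KO). Library totals ran from 13444964 to 30029485 counts in γδ IELs, from 15397757 to 38258478 in IECs and from 13619314 to 21708727 in tissue. Libraries are named below by their number in the labels, and levels are given as CPM, the counts scaled to library size by the TMM method. A gene passed a comparison, and is said to have risen or fallen, at an adjusted p below 0.05 and a fold change above 1.5 in a fit over all genes.

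Gasdermins are pore-forming proteins. A protease cuts the linker between their parts, and the freed amino-terminal part assembles into pores in the plasma membrane, which release cytokines and can end in the lytic cell death called pyroptosis. Gsdmd is the member cut by the inflammatory caspases, the Gsdmc copies are expressed in intestinal epithelium and are known to respond to the type 2 cytokines through Stat6, and Gsdma is best known from skin and the upper digestive tract.

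The 4 Gsdmc genes lie in a row on the minus strand of chromosome 15 (GRCm38), Gsdmc at chr15:63775968-63808759, Gsdmc2 at chr15:63824346-63845177, Gsdmc3 at chr15:63857724-63878558 and Gsdmc4 at chr15:63891264-63912297. Gsdmd lies further along the same chromosome on the plus strand, at chr15:75862327-75867408, and Gsdma on the plus strand of chromosome 11, at chr11:98664351-98677708. All 6 are annotated as protein coding. The coding sequences of Gsdmc2 and Gsdmc3 were 97.2% identical, each was 93.4% identical to Gsdmc4, and Gsdmc was 83.6% to 84.8% identical to the other copies. The first 120 coding bases show why reads are hard to place, and are printed for that reason from the GRCm38 transcripts, 5′ to 3′, with capitals at each base that differs from Gsdmc4.
Gsdmc4: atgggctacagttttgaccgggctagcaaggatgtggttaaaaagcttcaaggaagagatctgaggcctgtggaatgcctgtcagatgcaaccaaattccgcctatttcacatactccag
Gsdmc3: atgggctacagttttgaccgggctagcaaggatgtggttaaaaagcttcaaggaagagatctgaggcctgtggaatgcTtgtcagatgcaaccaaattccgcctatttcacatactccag
Gsdmc2: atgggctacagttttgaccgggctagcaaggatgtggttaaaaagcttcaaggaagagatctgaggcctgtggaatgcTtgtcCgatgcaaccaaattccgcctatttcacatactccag
Gsdmc: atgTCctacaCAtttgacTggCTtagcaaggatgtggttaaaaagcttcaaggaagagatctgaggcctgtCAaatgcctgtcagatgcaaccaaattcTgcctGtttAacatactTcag
Gsdmc3 differed from Gsdmc4 at 1 of these bases, Gsdmc2 at 2 and Gsdmc at 13. Stretches of 100 bases, the read length in the study's methods for bulk RNA, were compared between copies. Of these, 31.1% in Gsdmc3, 24.8% in Gsdmc2, 19.6% in Gsdmc4 and 7.33% in Gsdmc occurred letter for letter in another copy. The methods do not give the read length for each source separately, and shorter reads would fit several copies more often. The authors' counting divided reads that fit several copies by estimate, so the values of single copies are less certain than their sum.

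In all 65 bulk libraries the copies held the same order of counts, with Gsdmc4 above Gsdmc2, Gsdmc2 above Gsdmc3 and Gsdmc3 above Gsdmc. Per kilobase of the longest transcript, the median level in WT ileal IECs was 112 CPM for Gsdmc4, 62.1 for Gsdmc2, 21.2 for Gsdmc3 and 0.379 for Gsdmc. Gsdmc itself was at 0 counts in all 22 γδ IEL libraries, and in tissue its level did not pass 22.2 CPM. The summed value is therefore nearly all Gsdmc2, Gsdmc3 and Gsdmc4.

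**Figure D1:**
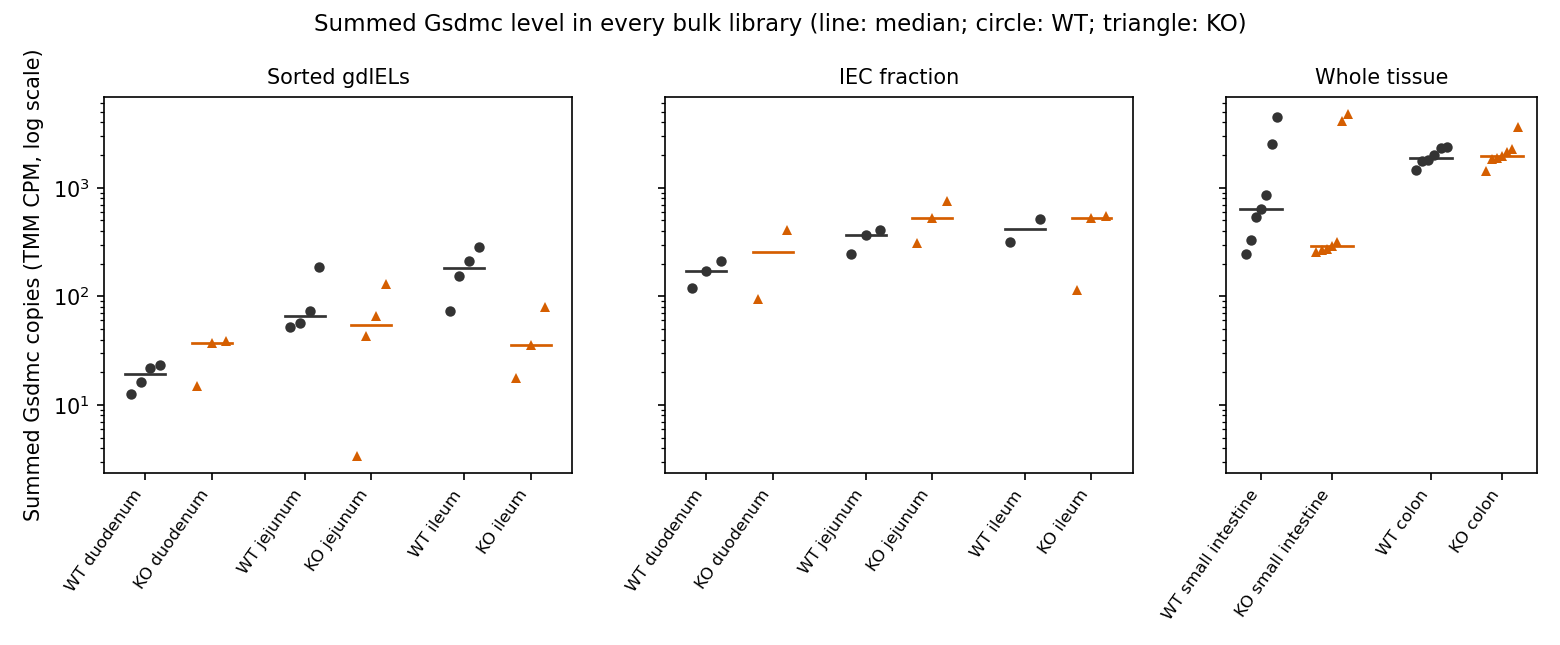
Summed Gsdmc level (TMM CPM, log axis) in each bulk library, by segment or tissue and genotype, for sorted γδ IELs (written gdIELs), the IEC fraction and whole tissue. Each point is a library and each line a group median. WT γδ IELs of the ileum (72.9 to 282 CPM) lie above those of the duodenum (12.5 to 23.2 CPM), and 4 small intestine tissue libraries, 2 of each genotype, reach 2534 to 4824 CPM.

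The whole-library facts that touch these results are few. Btnl2, the deleted gene, lay at 0 to 0.124 CPM in Btnl2-KO γδ IELs against 2.47 to 9.89 CPM in WT, and at 0.674 to 2.44 CPM against 23.9 to 103 CPM in small intestine tissue. Among Btnl2-KO IECs it was at 5.45 CPM in 1003459 and 19.5 CPM in 1003474, above the other Btnl2-KO libraries (0.342 to 0.595 CPM) and below every WT library (25.1 to 67.7 CPM). Segment markers went against the label in 3 IEC libraries: the ileal bile acid binding protein Fabp6 was at 220 CPM in 1003459, labelled Btnl2-KO duodenum, at 484 CPM in 1003474, labelled Btnl2-KO jejunum, and at 0.231 CPM in 1003481, labelled Btnl2-KO ileum. Among the jejunal γδ IEL libraries, Btnl2-KO 1105593 held 33.6 CPM of 3 ileal markers, where the other 7 held 0 to 6.62 CPM. The WT small intestine libraries 964947 and 964948 held 846 and 1624 CPM of the colon gene Car1, where the other 12 small intestine libraries held at most 0.61 CPM. Gata4, a factor of the proximal small intestine, was at 95.6 CPM in 964939 and 82.7 CPM in 964950 and at most 15.1 CPM in the other 12. The 3 ileal markers summed to 517 CPM in 964939, 134 CPM in 964950 and 1198 to 4509 CPM in the other 12. In WT ileal IECs they summed to 627 to 631 CPM. The labels do not name the part of the small intestine that was taken as tissue. The γδ IEL markers (8 genes, Cd3e and Itgae among them) summed to 33770 to 88945 CPM in the sorted libraries, and all 8 were above 0 in each of them.

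In WT γδ IEL libraries the Gsdmc copies were far higher in jejunum and ileum than in duodenum. The summed value was 12.5, 22.1, 23.2 and 16.3 CPM in the 4 duodenal libraries (1105579 to 1105582), 73.9, 187, 52.3 and 57.2 CPM in the 4 jejunal libraries (1105595 to 1105598), and 72.9, 212, 282 and 154 CPM in the 4 ileal libraries (1105587 to 1105590). Every jejunal and every ileal library lay above every duodenal library, while jejunum and ileum overlapped. The sum rose 9.74-fold in ileum against duodenum (log2 3.28, SE 0.46, adjusted p = 0.0015, edgeR quasi-likelihood test) and 4.92-fold in jejunum against duodenum (log2 2.30, SE 0.45, adjusted p = 0.0031). With both genotypes in the fit the log2 difference of ileum against duodenum was 2.13 and no longer passed (adjusted p = 0.071). The adjusted p of its other alternatives, each library left out included, was at most 0.0094. For jejunum against duodenum the adjusted p by edgeR was at most 0.013 without each library in turn. Between ileum and jejunum the log2 difference was 0.99 (SE 0.42, adjusted p = 0.086), which did not pass the threshold.

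The 3 measurable copies moved together along the segments. Gsdmc3 was at 0.157 to 1.72 CPM in the duodenal libraries and at 9.36 to 37.998 CPM in the ileal ones, a log2 difference of 4.63. Gsdmc2 went from 1.89 to 6.74 CPM to 17.7 to 69.6 CPM (log2 3.26), and Gsdmc4 from 10.3 to 15.4 CPM to 45.9 to 175 CPM (log2 3.12). All 3 rose in ileum against duodenum, where 2.11% of the 12899 genes tested passed in either direction, and all 3 rose in jejunum against duodenum (log2 3.26, 2.35 and 2.17 in the same order), where 22.5% passed. None of the 4 members tested passed between ileum and jejunum, where 21.9% of genes passed. In these 3 comparisons 3, 3 and 2 of the 4 tested members were at an unadjusted p below 0.05. DESeq2 called the same numbers of members, and limma-voom with quality weights called all 3 copies higher in ileum than in jejunum. Gsdmc and Gsdma did not pass the filter on low counts in any γδ IEL comparison, so the counts concern 4 of the 6 members.

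Epithelial markers went the same way as the Gsdmc copies in ileum against duodenum and the other way in jejunum against duodenum. Summed over 12 pan-epithelial genes (Epcam, Cdh1, Vil1 and keratins among them), all of which were above 0 in every γδ IEL library, the level was 2822 to 4457 CPM in WT duodenal, 1805 to 4865 CPM in WT jejunal and 3006 to 7620 CPM in WT ileal γδ IEL libraries, against 7452 to 11992 CPM in IECs. The median log2 difference of these genes from WT duodenal γδ IELs was 0.50 in ileum and -0.42 in jejunum. In ileum 0 of the 12 passed, where 2.11% of all genes did. In jejunum 1 rose and 1 fell, where 22.5% of all genes passed. Fewer cells of a type and less RNA per cell cannot be told apart in such libraries. Per 1000 pan-epithelial counts there were 2.81 to 7.35 Gsdmc counts in the duodenal, 17.4 to 38.5 in the jejunal and 24.3 to 43.0 in the ileal WT libraries, so the duodenal libraries stayed below the others on this scale too. With the mean of the epithelial genes as a covariate the log2 difference was 2.69 in ileum against duodenum, 2.51 in jejunum against duodenum, both still past the threshold, and 0.19 in ileum against jejunum.

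**Figure D2:**
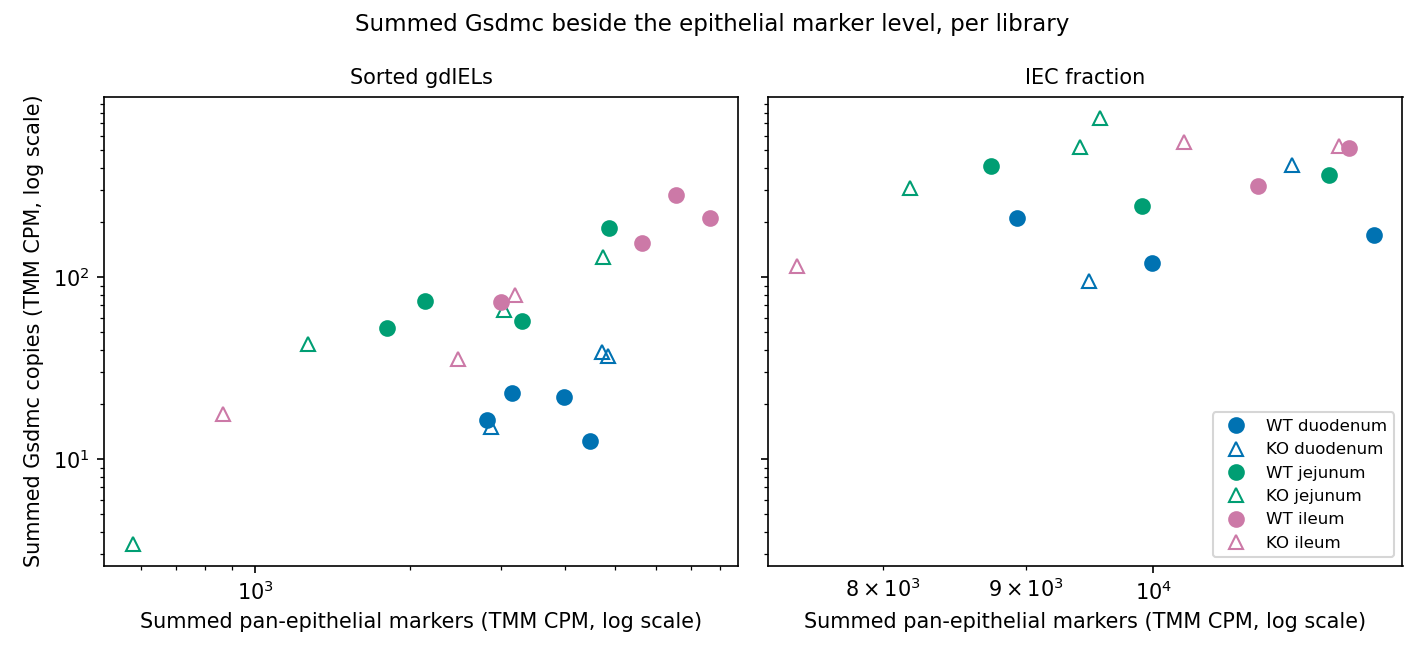
Summed Gsdmc level against the summed level of 12 pan-epithelial genes (both TMM CPM, log axes) in each γδ IEL library (left, gdIELs) and IEC library (right), coloured by segment, filled circles WT and open triangles Btnl2-KO. Duodenal γδ IEL libraries lie low for their epithelial level, with 2.81 to 8.26 Gsdmc counts per 1000 epithelial counts against 14.3 to 43.0 in all ileal libraries.

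Deletion of Btnl2 was accompanied by lower Gsdmc in the ileal γδ IEL libraries, with a call that depended on the tool. The summed value was 35.5, 17.7 and 79.5 CPM in the 3 Btnl2-KO libraries (1105583, 1105585 and 1105586) against 72.9 to 282 CPM in WT. Only 1105586 lay within the WT range, just above the lowest WT library. The log2 difference was -2.01 (SE 0.54), with an unadjusted p = 0.0037 and an adjusted p = 0.43 by edgeR, which called none of the 12604 genes tested (0%). DESeq2 gave -2.05 with an adjusted p = 0.0059, and limma-voom with quality weights gave -2.54 with an adjusted p = 0.015. Over all alternatives run the adjusted p of the sum lay between 0.0059 and 0.998, and without each library in turn the edgeR log2 difference lay between -2.73 and -1.66. By edgeR the log2 differences were -2.18 for Gsdmc3, -1.85 for Gsdmc2 and -2.05 for Gsdmc4, and 3 of the 4 members tested were at an unadjusted p below 0.05, as were 1107 of all genes. DESeq2 called 3 of the 4 lower, among 221 genes called, and limma-voom the same 3 among 1208. Gsdmc3 and Gsdmc4 stand in the study's own list for ileal γδ IELs, which was drawn up on these libraries, so their direction here is no independent evidence.

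Epithelial markers were also lower in the same Btnl2-KO libraries but did not pass. Their sum was 864 to 3193 CPM in Btnl2-KO against 3006 to 7620 CPM in WT ileal γδ IELs, ranges that overlapped. The median log2 difference of the 12 genes was -1.30, beside 0.06 over all genes. By edgeR 0 of the 12 passed, as did 0% of all genes. The ileal epithelial genes Fabp6, Slc10a2 and Fgf15 summed to 98.8 to 135 CPM in Btnl2-KO and 324 to 619 CPM in WT. Per 1000 pan-epithelial counts, Gsdmc gave 14.3, 20.5 and 24.9 in Btnl2-KO and 24.3, 27.9, 43.0 and 27.3 in WT. With the epithelial mean as a covariate the log2 difference of the sum was -0.64 (adjusted p = 0.60). The part of the epithelial RNA in the lower Gsdmc was not tested beyond these values.

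In the other segments no member passed the test between genotypes. Duodenal Btnl2-KO γδ IELs had 39.0, 15.0 and 36.8 CPM of summed Gsdmc, with a log2 difference from WT of 0.71 (SE 0.32, adjusted p = 1.0), and the groups overlapped. Jejunal Btnl2-KO γδ IELs had 66.5, 3.41, 42.9 and 129 CPM, a log2 difference of -0.58 (SE 0.84, adjusted p = 0.83) that became 0.03 without the WT library 1105596 and -0.46 without 1105593, the library with ileal markers. Library 1105592, with 3.41 CPM, was also the one with the lowest epithelial sum, 578 CPM. By edgeR 0 of 4 tested members passed in either segment (1 and 0 at an unadjusted p below 0.05), where 0.00789% and 0.00794% of all genes did, and DESeq2 and limma-voom called none either. The difference between the ileal and the duodenal genotype effects on the sum was -2.73 on the log2 scale (unadjusted p = 0.017, adjusted p = 0.72), and that between ileum and jejunum was -1.42 (adjusted p = 0.49). No gene passed either of these tests of the difference (0% of 13360, with 765 and 1926 at an unadjusted p below 0.05, and 2 genes called by DESeq2 in each), and none of the 4 members did by either tool (3 and 0 at an unadjusted p below 0.05 by edgeR). A difference of the genotype effect between segments was thus not shown.

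The single-cell libraries, made from part of the same sorts according to the study's methods, placed nearly all Gsdmc molecules of the ileum in a few barcodes. In WT ileal γδ IELs 197 UMIs (unique molecules) of the 4 copies lay in 14 of 3778 barcodes, which is 9.44 CPM of all UMIs without further scaling (95% exact Poisson interval 8.17 to 10.9), and 83 of them lay in 1 barcode. In Btnl2-KO ileal γδ IELs there were 22 UMIs in 8 of 4696 barcodes, 0.781 CPM (0.490 to 1.18). Jejunum gave 47 UMIs in WT and 51 in Btnl2-KO, and duodenum 11 and 1. Gsdmc itself had none in any library. These intervals cover counting error only, and with 1 library per group no test of genotype or segment was made.

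Barcodes with epithelial molecules held most of them. Setting apart barcodes with at least 10 UMIs of the 12 epithelial genes, a limit chosen after seeing the data, left 28 barcodes in WT ileum, and these held 191 of the 197 Gsdmc UMIs (97.0%). Gsdmc was at 373 CPM in them and at 0.295 CPM in the rest. Of these 28 barcodes, 4 had a UMI of the T cell gene Cd3e, which 98.2% of all WT ileal barcodes had. In Btnl2-KO ileum 12 such barcodes held 18 of 22, and in Btnl2-KO jejunum 32 held 47 of 51. In WT jejunum 17 held 26 of 47, with 1.11 CPM in the rest, and 21 of the 25 barcodes with a Gsdmc UMI there also had Cd3e. In WT duodenum 28 held 4 of 11, and in Btnl2-KO duodenum 16 held 0 of 1. Single UMIs in T cell barcodes cannot be told apart from free RNA. Pan-epithelial UMIs were at 547 CPM in WT ileum and 210 CPM in Btnl2-KO ileum, the highest and the lowest of the 6 libraries, and the median barcode held 4862 to 5459 UMIs. Between 19 and 31 barcodes were shared by any pair of these libraries, at most 0.82% of a library.

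**Figure D3:**
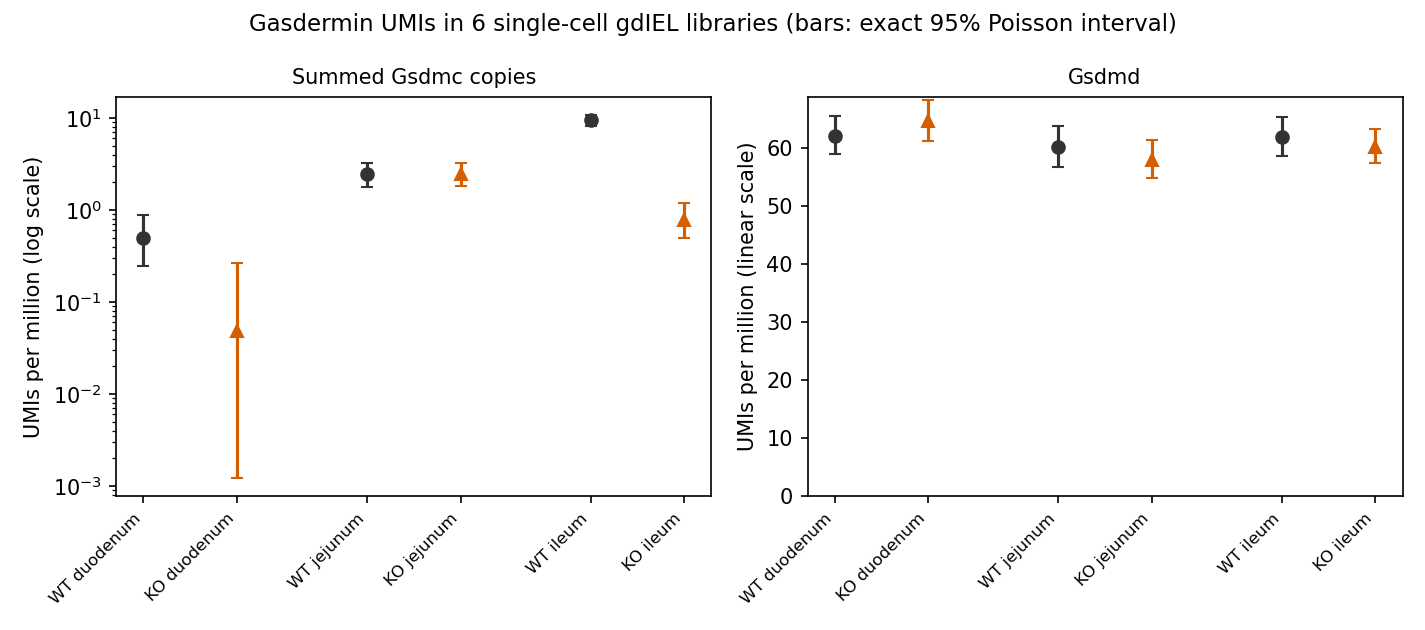
Summed Gsdmc (left, log axis) and Gsdmd (right, linear axis from 0) levels, as CPM of all UMIs, in the 6 single-cell γδ IEL libraries (gdIELs), with exact 95% Poisson intervals that cover counting error only. Summed Gsdmc runs from 0.0479 to 9.44 CPM, whereas Gsdmd stays between 57.9 and 64.6.

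In the IEC fraction, the source of epithelial RNA, the Gsdmc copies were also higher distally. WT duodenal IECs held 120, 170 and 211 CPM of summed Gsdmc (1003465, 1003466 and 1003468), WT jejunal IECs 410, 366 and 246 CPM (1003476, 1003477 and 1003480), and WT ileal IECs 511 and 317 CPM (1003488 and 1003491). Both distal groups lay above the duodenum in every library and overlapped each other. The sum rose 2.53-fold in ileum against duodenum (log2 1.34, SE 0.32, adjusted p = 0.037). Without 1003465, 1003488 or 1003491 the adjusted p no longer passed, and the range of the log2 difference without each library was 0.93 to 1.65. Jejunum against duodenum gave a log2 difference of 1.035 (SE 0.29, adjusted p = 0.18 by edgeR, 0.030 by DESeq2), and ileum against jejunum 0.29 (SE 0.32, adjusted p = 1.0).

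Of the copies, Gsdmc3 rose most between duodenum and ileum, from 7.30, 14.2 and 14.7 CPM to 56.7 and 35.8 CPM (log2 1.97, adjusted p = 0.014). Gsdmc2 rose from 30.5, 54.6 and 62.4 CPM to 167 and 102 CPM (log2 1.48, adjusted p = 0.037). Gsdmc4 went from 81.3, 101 and 134 CPM to 287 and 179 CPM, a log2 difference of 1.17 that missed the threshold (adjusted p = 0.051). Without 1003465, 1003488 or 1003491 Gsdmc2 did not pass (adjusted p up to 0.345), and without 1003488 Gsdmc3 did not (adjusted p = 0.148). Thus 2 of the 6 members passed, all 6 being tested, where 6.59% of 13046 genes did, and DESeq2 and limma-voom each called Gsdmc4 as well. Between jejunum and duodenum 0 of 6 members passed by edgeR and 4 were at an unadjusted p below 0.05, where 0.799% of genes passed, and DESeq2 called Gsdmc2, Gsdmc3 and Gsdmc4 higher in jejunum. Between ileum and jejunum 0 of 6 passed by any of the 3 tools, none was at an unadjusted p below 0.05, and 0.644% of all genes passed. Per 1000 pan-epithelial counts the sum was 11.99 to 23.6 in duodenal, 24.8 to 46.9 in jejunal and 29.1 to 43.5 in ileal WT IECs.

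Between genotypes no gasdermin passed in IECs. Duodenal Btnl2-KO IECs held 413 and 95.5 CPM of summed Gsdmc, the higher value being that of 1003459 with the ileal marker, and the log2 difference of 0.64 (adjusted p = 1.0) turned to -0.80 without it. Jejunal Btnl2-KO IECs held 523, 752 and 310 CPM, the highest in 1003474 (log2 0.62, SE 0.32, adjusted p = 0.57). Ileal Btnl2-KO IECs held 115, 524 and 554 CPM, the lowest in 1003481, which lacked the ileal marker, and the log2 difference of -0.06 (adjusted p = 0.99) became 0.38 without that library. The 2 libraries with the ileal marker thus stood highest in their groups and the 1 without it lowest. By edgeR, DESeq2 and limma-voom 0 of the 6, 5 and 6 members tested in duodenum, jejunum and ileum passed, with none at an unadjusted p below 0.05, while 0%, 0% and 0.00774% of all genes passed by edgeR.

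In whole small intestine tissue the Gsdmc copies split the libraries within each genotype. In WT the summed value ran from 246 CPM over a median of 642 CPM to 4443 CPM, and in Btnl2-KO from 254 CPM over a median of 288 CPM to 4824 CPM. The 2 highest WT libraries were 964946 (4443 CPM) and 964952 (2534 CPM), and the 2 highest Btnl2-KO libraries were 964941 (4088 CPM) and 964945 (4824 CPM). The other 10 lay at or below 852 CPM. The genotypes overlapped, the log2 difference was 0.11 (SE 0.88, adjusted p = 0.95), and it ran from -0.59 to 0.80 without each library in turn, turning negative without 964941, 964945, 964947, 964948, 964950 or 964951. Without the 4 libraries of unusual regional markers it was -0.28.

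The same 4 libraries stood highest in several genes of the type 2 cytokine response. Il13, a type 2 cytokine, was at 1.49 CPM in 964946, 2.12 in 964952, 1.27 in 964941 and 0.775 in 964945, at 0.382 in 964949, and at most 0.06 in the other 9. Retnlb, a goblet cell product induced by that cytokine, was at 156, 37.8, 22.4 and 51.4 CPM in the 4 libraries in the same order and at most 10.45 CPM in the rest. Pou2f3, the transcription factor of tuft cells, the epithelial cells that start this response, was at 16.7, 10.9, 21.955 and 14.7 CPM in them and at 2.28 to 4.64 CPM in the rest. The tuft cell kinase Dclk1 was at 78.6, 65.3, 137 and 76.6 CPM in them and at 17.2 to 41.1 CPM in the rest. Il25, the tuft cell cytokine, was raised in part of them, at 1.02 CPM in 964946 and 1.199 CPM in 964941, while 964952 was at 0 and 964945 at 0.233 CPM. Il4, the other main type 2 cytokine, did not follow, at 0.136, 0.148, 0.0749 and 0 CPM in them and at 0 to 0.259 CPM in the rest. Il4, Il13 and Il25 are low counts, and the libraries were set beside each other after their Gsdmc level was seen, so this is a description with no test.

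**Figure D4:**
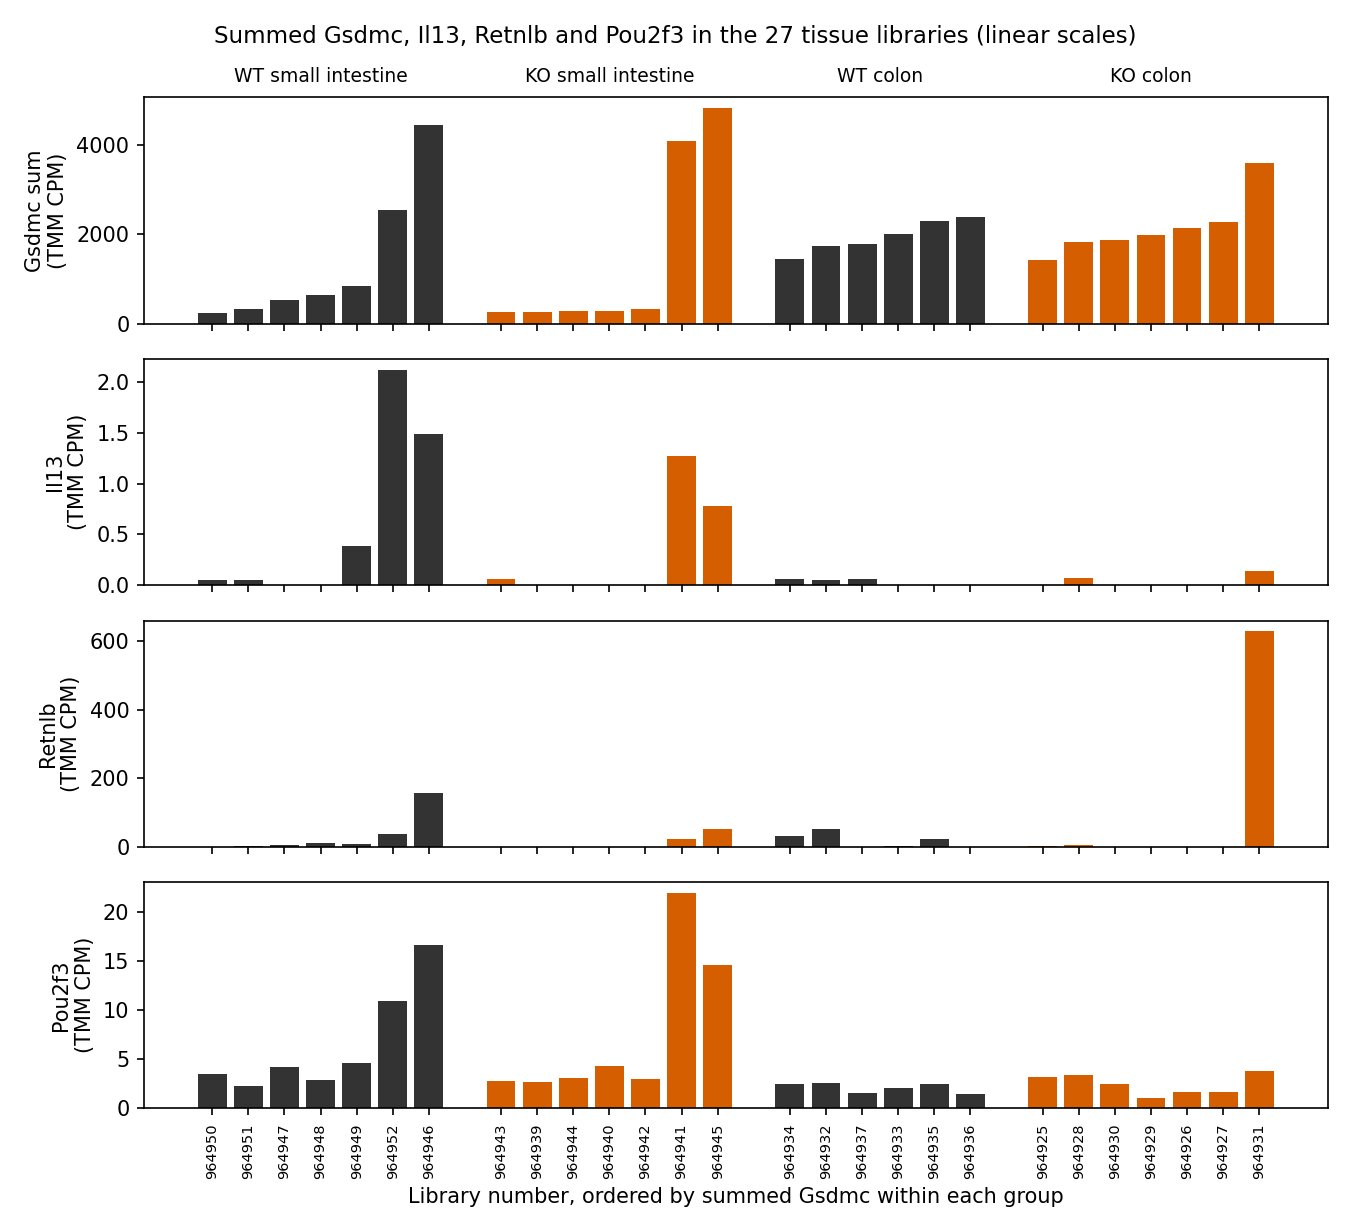
Summed Gsdmc, Il13, Retnlb and Pou2f3 levels (TMM CPM, linear axes from 0) in each of the 27 tissue libraries, ordered within a group by summed Gsdmc; dark bars WT, orange bars Btnl2-KO. The 4 small intestine libraries with summed Gsdmc of 2534 CPM or more also have the highest Il13, Retnlb and Pou2f3 of that tissue, whereas colon libraries hold 1426 CPM or more of summed Gsdmc with Il13 at or below 0.142 CPM.

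Colon tissue held high Gsdmc in every library. The summed value was 1445 to 2388 CPM with a median of 1900 CPM in WT and 1426 to 3595 CPM with a median of 1983 CPM in Btnl2-KO, the highest being 964931. Genotypes overlapped, with a log2 difference of 0.15 (SE 0.19, adjusted p = 0.98) that became -0.03 without 964931. In that library Retnlb was at 629 CPM, against 0.0434 to 52.5 CPM in the other 12 colon libraries, with Il13 at 0.142 CPM. The difference between the genotype effects in colon and small intestine was 0.05 (adjusted p = 0.99).

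All colon libraries lay above 10 of the 14 small intestine libraries and below or among the 4 high ones. By their markers most of these small intestine libraries held ileal RNA, so comparisons with colon need not apply to the whole small intestine. In WT the log2 difference of the sum between colon and small intestine was 0.49 (SE 0.57, adjusted p = 0.51) by edgeR and 1.57 (adjusted p = 0.0014) by limma-voom. Without 964946 the edgeR value was 1.16 (adjusted p = 0.054). Per 1000 pan-epithelial counts, WT colon held 133 to 229 Gsdmc counts with a median of 198 and WT small intestine 23.3 to 297 with a median of 44.2, a difference of 1.52 in mean log2 ratio (exact permutation test, two-sided, p = 0.035, adjusted p = 0.10 over 3 comparisons). Without 964946 or 964952 this difference was 1.85 or 1.88 (adjusted p = 0.045 for both). The same ratio differed by 0.04 between genotypes in colon (exact permutation test, adjusted p = 0.92) and by -0.79 in small intestine (adjusted p = 0.66).

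The mix of copies differed between the tissues. Gsdmc2 made up 25.3% ± 2.85 (SD, n = 6) of the summed counts in WT colon, from 22.3% to 29.4%, and 35.1% ± 3.29 (SD, n = 7) in WT small intestine, from 31.5% to 40.8%, so that the tissues did not overlap. The difference was -9.76 percentage points (exact permutation test, two-sided, p = 0.0012, adjusted p = 0.0035 over 3 comparisons), and -9.65 points without 964947 and 964948 (adjusted p = 0.013). This test was added after the values were seen. Gsdmc4 made up 60.6% to 64.6% in WT colon and 43.1% to 55.8% in WT small intestine. Between genotypes the share of Gsdmc2 differed by -0.04 points in colon and by 0.45 points in small intestine (exact permutation tests, adjusted p = 0.98 for both). In CPM, Gsdmc4 differed by 0.84 between WT colon and small intestine on the log2 scale and Gsdmc2 by -0.06, and neither passed the test. The shares rest on the estimated division of reads between near-identical copies.

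Gsdmd, the gasdermin cut by the inflammasome caspases, overlapped between all segments and genotypes. In the γδ IEL libraries it was at 84.7 to 119 CPM in WT duodenum, 92.1 to 108 CPM in WT jejunum and 88.7 to 137 CPM in WT ileum, and at 89.0 to 93.0, 76.6 to 104 and 88.9 to 112 CPM in the Btnl2-KO groups. All 6 groups overlapped. Per kilobase its median in WT duodenal γδ IELs, 58.2 CPM, was above that of Gsdmc4, 6.19 CPM, and in WT ileal γδ IELs the medians were 52.0 and 54.7 CPM. In single cells Gsdmd was at 57.9 to 64.6 CPM of all UMIs in all 6 libraries, and 25.4% to 29.5% of barcodes had a UMI. The barcodes with epithelial UMIs, set apart as for Gsdmc, held 0.177% to 3.30% of the Gsdmd UMIs. Gsdmd was at 5.98 to 106 CPM in these few barcodes and at 57.1 to 63.9 CPM in the rest. The values in these barcodes rested on few UMIs, from 3 in Btnl2-KO ileum to 40 in Btnl2-KO jejunum, and were not tested. The level in them was above that in the rest in Btnl2-KO duodenum and Btnl2-KO jejunum, and below it in the other libraries.

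The sources were scaled separately, so their levels are only set side by side, with no test between them. In IECs Gsdmd was at 17.5 to 82.1 CPM, beside 76.6 to 137 CPM in the γδ IEL libraries, and all 6 IEC groups overlapped. In ileum the WT libraries were at 27.7 and 36.4 CPM and the Btnl2-KO libraries at 19.0, 28.9 and 18.9 CPM. Per kilobase the median in WT ileal IECs was 17.9 CPM for Gsdmd and 112 CPM for Gsdmc4. In tissue Gsdmd ran from 47.9 CPM over a median of 124 CPM to 179 CPM in WT small intestine and from 113 over 156 to 245 CPM in Btnl2-KO small intestine. The log2 difference of 0.54 (SE 0.25) had an unadjusted p = 0.047 and an adjusted p = 0.21 by edgeR, and 0 of the 6 members passed there, where 0.0202% of genes did. In colon Gsdmd was at 71.7 to 117 CPM in WT and 79.9 to 168 CPM in Btnl2-KO, and 0 of 6 members passed between genotypes (none at an unadjusted p below 0.05), where 0.0269% of genes did. DESeq2 and limma-voom called 0 of 6 members in either tissue as well. For the difference of genotype effects between the tissues 0 of 6 members passed, where 0.0193% of genes did, with none at an unadjusted p below 0.05 and none called by DESeq2.

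**Figure D5:**
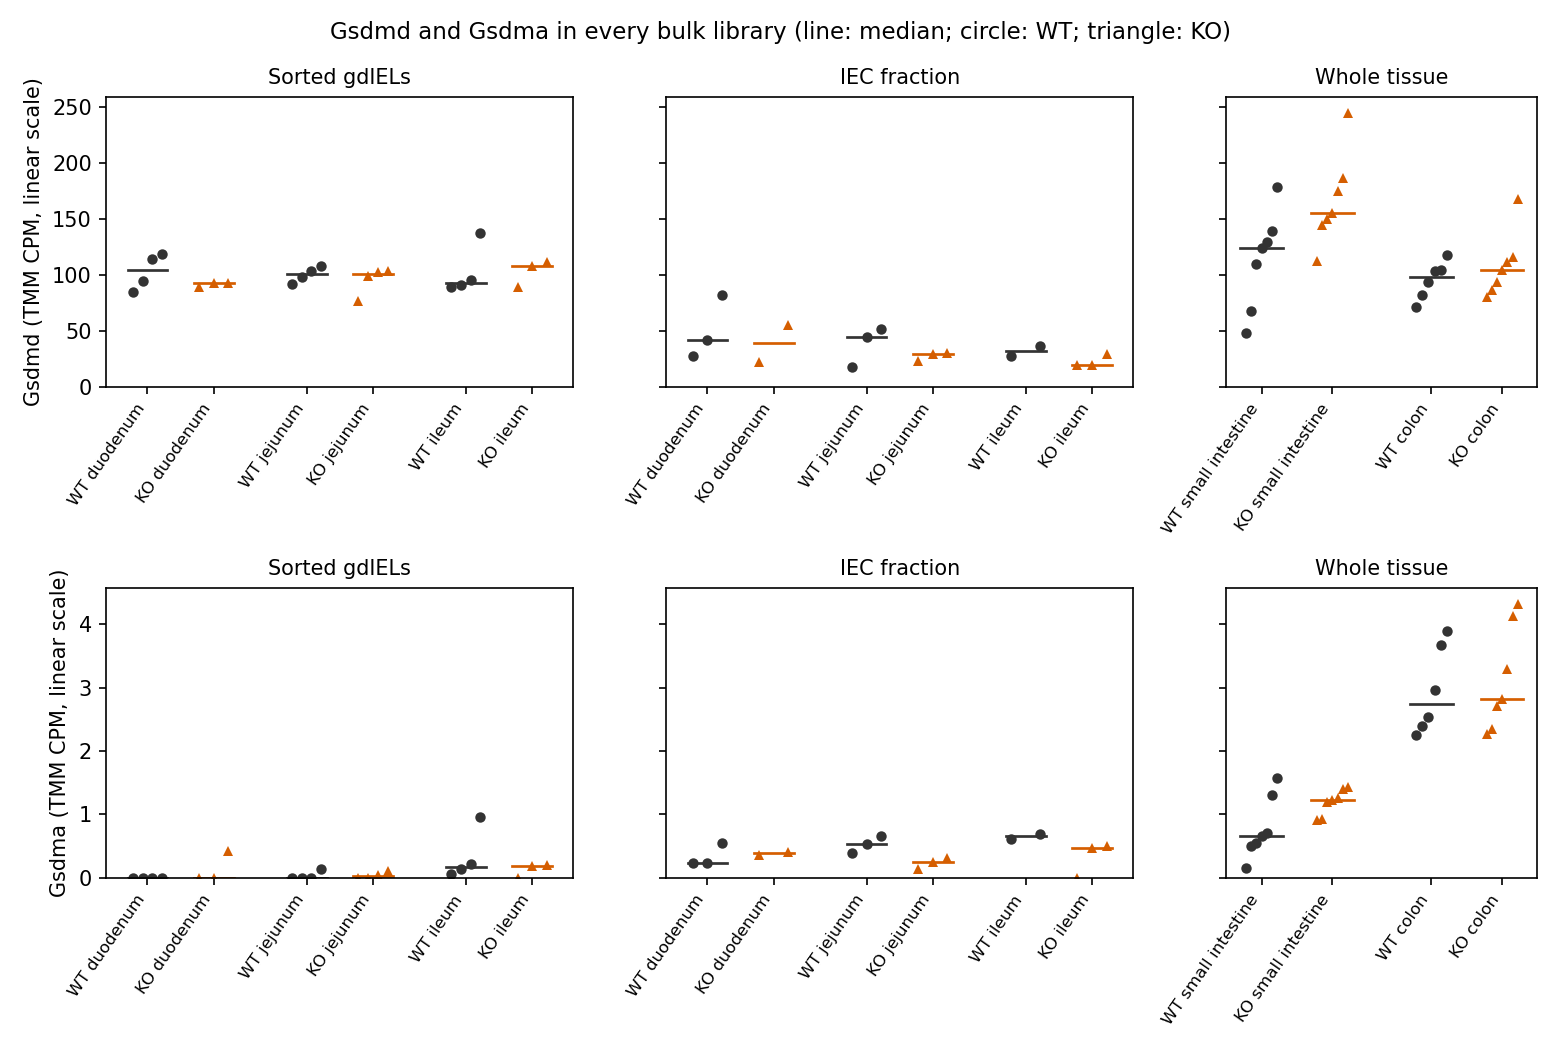
Gsdmd (upper row) and Gsdma (lower row) levels (TMM CPM, linear axes from 0) in each bulk library, by source, segment or tissue and genotype (gdIELs are γδ IELs), with lines at group medians. Gsdmd overlaps between most groups, from 17.5 to 245 CPM, and Gsdma is at 2.26 to 4.32 CPM in colon and at most 1.58 CPM elsewhere.

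Gsdma was the 1 member that differed between WT colon and small intestine by edgeR. It was at 2.26, 2.74 and 3.89 CPM (lowest, median and highest of 6) in WT colon and at 0.148, 0.652 and 1.58 CPM (of 7) in WT small intestine, with no overlap. It rose 3.72-fold (log2 1.89, SE 0.35, adjusted p = 5.4e-04), and it rested on 41 to 63 counts a library in WT colon and 3 to 27 in WT small intestine. Of the 6 members 1 passed in this comparison, where 27.6% of the 15162 genes did, and DESeq2 called the same 1 while limma-voom called 5, all but Gsdmd. Btnl2-KO colon was alike in range, at 2.28 to 4.32 CPM, and Btnl2-KO small intestine was at 0.913 to 1.44 CPM. In IECs Gsdma was at 0 to 0.693 CPM. In the γδ IEL libraries it was at 0 counts in all 4 WT duodenal libraries and did not pass 16 counts in any other.

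Of the related genes outside the 6, Gsdme, a gasdermin encoded on another chromosome, ran along the gut in the same direction as the Gsdmc copies in the small intestine and the other way in colon. Its mean level in WT IECs was 6.13 CPM in duodenum, 11.7 CPM in jejunum and 38.6 CPM in ileum, and it rose in all 3 pairs of segments (log2 0.94, 2.68 and 1.73 for jejunum against duodenum, ileum against duodenum and ileum against jejunum, adjusted p = 0.045, 1.6e-04 and 0.0066). In WT γδ IELs it was at 1.69, 4.14 and 15.7 CPM in the same order. In WT tissue it was at 7.45 CPM in colon against 88.8 CPM in small intestine (log2 -3.60, adjusted p = 9.5e-06). Gsdma2 stayed at or below 2.07 CPM, and Gsdma3, Pjvk, Gsdmcl1 and Gsdmcl2 at or below 0.267 CPM in every bulk library. The neighbouring pseudogene Gsdmcl-ps, on the opposite strand, reached 13.9 CPM in WT small intestine and 8.40 CPM in Btnl2-KO colon.

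The genes that act around the gasdermins were described from lists, by edgeR. Of the 45 list genes, epithelial and lymphocyte markers aside, 28 to 35 were tested in each of the 8 comparisons of genotype and none passed by edgeR, with 6 at an unadjusted p below 0.05 in ileal γδ IELs, 13 in small intestine tissue and at most 1 elsewhere. Over all genes, 1107 of 12604 in ileal γδ IELs and 3415 of 14866 in small intestine tissue were below that p by edgeR. DESeq2 called Naip5 and Nlrp1b in small intestine tissue, among 177 genes called. By limma-voom Casp4, Il13ra1, Il18, Naip1, Nlrp6 and Pycard were called in ileal γδ IELs, among 1208 genes. Among the proteases that cut gasdermins, Casp6 fell in WT IECs between duodenum and ileum (log2 -2.90). In WT γδ IELs Casp6 fell in the same comparison (log2 -1.05) and Casp4, which senses bacterial lipopolysaccharide and cuts Gsdmd, rose (log2 0.91). In WT colon against small intestine Casp4 (log2 -0.87), Gzma (log2 -7.65) and Gzmb (log2 -5.78) fell. These were 3 of 8 tested, where 27.6% of all genes passed in either direction. All 8 γδ IEL markers, which include both granzymes, fell there too.

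Inflammasome sensors and the adaptor Pycard were mostly lower in WT colon: 8 of 14 tested fell and 1 rose, with a median log2 difference of -0.76 beside -0.02 over all genes, of which 27.6% passed in either direction. All 8 γδ IEL markers (median log2 -3.32), the leukocyte gene Ptprc among them (log2 -1.13), and the epithelial genes Vil1, Krt20 and Cdh17 fell in the same comparison, and their part in these differences was not tested. The bacterial flagellin receptor Naip5 went from a mean of 206 CPM in small intestine to 105 CPM in colon (log2 -0.99), its partner Nlrc4 from 78.4 to 36.9 CPM (log2 -1.11) and Zbp1 from 39.8 to 9.64 CPM (log2 -2.07). The DNA sensor Aim2 rose from 16.8 to 56.1 CPM (log2 1.72). Along WT IECs 3 of 12 tested rose from duodenum to ileum, where 6.59% of all genes passed, Aim2 (log2 2.35), Nlrp9b (log2 1.61) and Naip6 (log2 0.92). Of the released products, the cytokine Il18 was 8.78-fold higher in WT colon than in small intestine and Ninj1, which ruptures the membrane of dying cells, 1.59-fold higher, while Il1a (log2 -4.45) and Il1b (log2 -1.55) fell. Il18 fell from duodenum to ileum in WT IECs (log2 -1.57) and in WT γδ IELs (log2 -2.20). Irf1, known like Irf2 to drive Gsdmd transcription, fell in WT colon (log2 -0.73). Of the type 2 list, Il4ra (log2 -1.09) and Pou2f3 (log2 -1.60) fell in WT colon, Retnlb rose (log2 2.27) and Dclk1 fell (log2 -1.11) from duodenum to ileum in WT IECs. In WT γδ IELs Stat6 and Il4ra were higher in jejunum than in duodenum (log2 0.72 and 0.64), where 22.5% of all genes passed. Both were lower in ileum than in jejunum (log2 -0.76 and -0.71), where 21.9% passed. Retnlb was higher in ileum than in jejunum (log2 4.42), at means of 2.79 and 0.127 CPM. In that comparison 6 of the 12 pan-epithelial genes rose and 1 fell, and their part in the Retnlb difference was not tested.

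The genes whose log2 levels ran most like the summed Gsdmc were taken in each table as the 5 with the highest Pearson correlation. In γδ IELs, over 22 libraries and 9961 genes, these were Bcas1 (0.93), Osr2 (0.92), Mgat4c (0.90), Tmem117 (0.90) and Naaladl1 (0.90). In IECs, over 16 libraries and 9372 genes, they were Nlrc4 (0.93), Pla2g2f (0.91), Sh3rf2 (0.90), Nts (0.90) and 1700025G04Rik (0.90). In tissue, over 27 libraries and 11755 genes, they were Fam124a (0.91), Pdlim4 (0.88), Lrmp (0.88), Pcyox1l (0.87) and Ppp1r3b (0.87). Gsdmd correlated at -0.33, -0.43 and -0.39 in the same tables. The points share segment, tissue and epithelial content, so these values only describe the libraries. The promoter table of RefSeq (GRCm38.p6) held 1 member, Gsdmc3, whose window of 300 bases contained no match on either strand to TTCNNNNGAA, which 6.95% of all promoters in the table contain.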

How the data were processed

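Bulk RNA was measured in 65 libraries and single-cell RNA in 6. The authors mapped bulk reads with ArrayStudio and deposited RSEM expected counts of sense-strand exon reads per gene (GRCm38 per the labels); RSEM divides reads that fit several gene copies by estimate. They deposited UMI counts per barcode from Cell Ranger for the single-cell libraries. Of the bulk values 5.00% to 17.2% were not whole and were rounded. The labels and the study's methods name different library kits. One column of per-sample values (1 of the γδ IEL table) matched no sample used here and was left out. Identifiers without a symbol, 100 a table, held 0.253% to 9.24% of counts. They were kept in the library sizes and, where they passed the filter on low counts, in the tests.

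Groups came from the labels. Each comparison was fitted over all genes that reached 10 counts in a number of libraries equal to the smaller group, by edgeR 4.0.16 (TMM scaling, quasi-likelihood test, Benjamini-Hochberg adjustment) in R 4.3.3, with a call at an adjusted p below 0.05 and a fold change above 1.5. Genotypes were compared within a segment or tissue, and segments among WT libraries in 1 fit. The summed Gsdmc entered as an added row. The SE is the log2 fold change over the root of F. Alternatives were DESeq2 1.42.0, limma 3.58.1 (voom with quality weights), other scaling, filters and library sets, and each library left out in turn. Shares and ratios were tested by exact permutation (scipy 1.17.1). Scripts were tested on simulated data. The members and the gene lists were chosen with earlier results of these data known. The named genes include all 6 members, part of the list genes that passed, and the 5 most correlated genes per table with a mean CPM of at least 5 on log2(CPM + 1). Not every list gene that passed, nor every comparison in which one passed, is given. Replicate libraries differed by more than sampling noise (lowest chi-square per degree of freedom 5.28). Only the γδ IEL methods tie the libraries of a segment to separate pools of mice, and segments can share them, so p-values measure the spread between libraries. No barcode was removed from the single-cell matrices as a doublet or by any other filter. The result of 1 listed protease gene is not reported here.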

Additional observations from a re-analysis of the deposited data

Results flagged for a closer look

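Of 51 sets of member values in groups of 4 to 10 libraries, 12 held a library far from its group (Dixon's test at 95%). For normally distributed values chance gives about 1 in 20 sets. The CPM values were not transformed and sets with tied values were kept, so that rate need not apply here. In WT jejunal γδ IELs 1105596 was high in summed Gsdmc (187 CPM) and in Gsdmc4 (118 CPM), and 1105597 was the only one with Gsdma counts (0.14 CPM). For Gsdmd, 1105594 was low among Btnl2-KO jejunal γδ IELs (76.6 CPM), 1105587 was high among WT ileal γδ IELs (137 CPM), and 964926 was high among Btnl2-KO colon libraries (168 CPM). In WT small intestine tissue 964946 was high in Gsdmc (22.2 CPM), Gsdmc2 (1814 CPM) and Gsdmc3 (694 CPM). In Btnl2-KO colon 964931 was high in summed Gsdmc (3595 CPM), Gsdmc2 (1114 CPM) and Gsdmc4 (2149 CPM). These values belong to 7 libraries and overlap where the sum and its copies are counted side by side. None of the causes was tested.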

How the results depend on the processing

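No paired analysis was possible because each library number is used once, so that groups share no replicate number. Log2 differences of summed Gsdmc (adjusted p) changed side or direction as follows, and the causes were not tested. With DESeq2, ileal γδ IELs between genotypes gave -2.05 and WT IECs, jejunum against duodenum, 1.04, both now past the threshold. With limma-voom, past the threshold were the ileal genotype difference in γδ IELs (-2.54), WT γδ IELs ileum against jejunum (1.61) and WT colon against small intestine (1.57), while the sign turned for ileal IECs between genotypes (0.31), small intestine tissue between genotypes (-0.62) and Gsdmc2 in WT colon against small intestine (1.08). With both genotypes in the fit, ileum against duodenum lost its call in WT γδ IELs (2.13) and in IECs (0.99), ileum against jejunum turned in IECs (-0.074) and Gsdmc2 in colon against small intestine turned (0.003133). Fitting only the 2 segments lost the IEC call of ileum against duodenum (1.32), and both genotypes without 1003459, 1003474 and 1003481 gained jejunum against duodenum (1.31). Small intestine between genotypes turned without 964939, 964947, 964948 and 964950 (-0.28), a choice made after seeing the data.

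Leaving out each library in turn gave these ranges for the sum, ratios and shares where a call or sign changed. Jejunal γδ IELs between genotypes ran from -1.35 to 0.032, turning without 1105596. WT γδ IELs, ileum against jejunum, ran from 0.68 to 1.57, with a call gained without 1105587 (1.25) or 1105596 (1.57). Duodenal IECs between genotypes ran from -0.80 to 1.34 and ileal IECs from -0.37 to 0.38, turning without 1003481 or 1003488. WT IECs, ileum against duodenum, ran from 0.93 to 1.65 (adjusted p 0.0352 to 0.357) and ileum against jejunum from -0.10 to 0.60, turning without 1003488. Small intestine between genotypes ran from -0.59 to 0.80, colon from -0.029 to 0.23, and Gsdmc2 in WT colon against small intestine from -0.24 to 0.77, turning without 964946 or 964952. Among single copies a call changed without some library for Gsdmc2, Gsdmc3 and Gsdmc4 in WT IECs, ileum against duodenum, and in WT γδ IELs, ileum against jejunum, and for Gsdmc4 in WT colon against small intestine (0.66 to 1.37, past the threshold without 964946). The ratio to epithelial counts ran from 1.27 to 1.88 in WT colon against small intestine (past the threshold without 964946 or 964952) and from -0.13 to 0.12 between genotypes in colon. The share of Gsdmc2 between genotypes ran from -0.99 to 0.77 points in colon and from -0.14 to 1.41 points in small intestine. The tests of differences between genotype effects were not repeated without each library. With edgeR, DESeq2 and limma-voom the ileal γδ IEL genotype comparison called 0, 221 and 1208 genes and small intestine tissue 3, 177 and 51. Precision is limited by 2 to 4 libraries a group in γδ IELs and IECs and by the division of reads among copies.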
